A study of Mus musculus with 14 samples.

Results

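A mouse cell line labelled as a mammary tumor line was compared with 3 lines labelled fibroblast, embryo fibroblast and skin, and the question was how far the tumor line resembled fibroblasts. The comparison drew on 6 of the 14 arrays of the series: 2 arrays of the mammary tumor line, 2 of the fibroblast line and 1 each of the embryo fibroblast and skin lines. The arrays were assigned to their groups by their labels, and the comparison was chosen with earlier results of these data known. The remaining 8 arrays carried 7 other lines (liver, testis, kidney, myoblast, myeloma, T-cell lymphoma and macrophage) and were used for the shared error estimate and for setting levels in context. On each 2-channel spotted array total RNA of 1 line, in Cy5, was hybridised against a commercial mouse reference RNA pool from Stratagene, in Cy3. No treatment, genotype, strain or age is given for any line, so the mammary tumor line and its comparators are distinguished by origin alone. Each line stands for 1 cell line and not for a tissue or a tumor type, and the labels' titles say cell line while their short annotation says primary tissue.

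Fibroblasts are the connective tissue cells that secrete and remodel the collagen-rich matrix, and cultured fibroblast lines also release growth factors, their binding proteins and chemokines. Mammary tumors arise mostly from epithelium, which is recognised by keratins, E-cadherin, Epcam and claudins, and some mammary tumor lines lose these proteins in culture and take on a spindle shape. A log2 ratio over a pool reports how much of a transcript a line carried relative to the pool: 0 means as much as the pool, 1 means 2-fold the pool's amount and negative values mean less. All values below are log2 ratios of line over pool after each array was centred on its own median, or differences between such ratios.

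The labels were first set against defining markers. Of 14 probes for 13 epithelial and mammary markers, the mean of its arrays lay above the pool for 4 and below it for 10. It lay above the mean of the comparator lines for 11 of the 14, by 1.30 for Krt19, a keratin, and by 1.23 for Cldn7, a claudin, neither called. Epcam, an epithelial adhesion protein, read -2.33 and -1.44 on the mammary tumor arrays, against -2.45 and -1.15 in the fibroblast line, -3.08 in the embryo fibroblast line and -1.38 in the skin line. Krt8, a keratin of simple epithelia, read -3.43 and -2.67 in the mammary tumor line, against -2.28 and -1.79 in the fibroblast line, -3.89 in the embryo fibroblast line and -3.22 in the skin line. For both genes the mammary tumor arrays lay inside the range of the comparator arrays, and both were highest elsewhere, Krt8 in the liver line and Epcam in the myeloma line. Cdh1, which encodes E-cadherin, read 0.33 and -0.63 in the mammary tumor line, against -0.15 and -0.95 in the fibroblast line, -0.24 in the embryo fibroblast line and -0.79 in the skin line. The milk protein genes Csn2 and Wap lay near the pool, with 0.08 and 0.30 for Csn2 on the mammary tumor arrays. Csn3, a further milk protein gene, read -1.78 and -0.77 in the mammary tumor line, against 1.36 and 0.59 in the fibroblast line, -1.48 in the embryo fibroblast line and 0.26 in the skin line (-1.19 ± 0.41, adjusted p = 0.275). None of the 14 probes was called in the limma fit described below, while 3 of the 13 genes had an unadjusted p under 0.05. Of all 7408 tested probes, 1014 had such a p with both mammary tumor arrays on the same side of the comparator mean. In RNA of a whole culture, fewer cells with a transcript and less of it per cell cannot be told apart.

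The comparator lines were not uniformly high in fibroblast markers either. Of 10 fibroblast markers 8 genes were measured by 9 probes, and the mean of the 3 comparator lines lay below the pool for all 9. Over these 9 probes the skin array had the lowest mean, -1.92, against -0.81 and -0.001 for fibroblast and -1.01 for embryo fibroblast. Skin read -5.63 for Dcn, the small proteoglycan decorin, and -3.37 for Col3a1, against 2.12 and 1.89 for Dcn in the fibroblast line. It was not the lowest for every marker, and for Postn it was the highest comparator, at -1.24. Col1a1, the main chain of type I collagen, read -2.98 and -2.29 in the mammary tumor line, against -0.74 and 0.98 in the fibroblast line, -1.37 in the embryo fibroblast line and -1.49 in the skin line. Thy1, a surface marker of many fibroblasts, exceeded the pool only on the embryo fibroblast array, at 1.44, and read -3.72 and -2.28 on the mammary tumor arrays. Fn1, which encodes fibronectin, read 1.05 and 1.44 in the mammary tumor line and was highest there among all 11 lines, against -1.03 and 0.72 in the fibroblast line, 0.19 in the embryo fibroblast line and -1.47 in the skin line. Its difference of 1.72 ± 0.68 (SE) did not pass the test (limma, adjusted p = 0.33). Leukocyte markers were low throughout: the mean of Ptprc, Laptm5 and Coro1a was -3.21 and -3.29 on the mammary tumor arrays, against -3.56 and -3.80 for fibroblast, -2.94 for embryo fibroblast and -3.73 for skin.

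**Figure D1:**
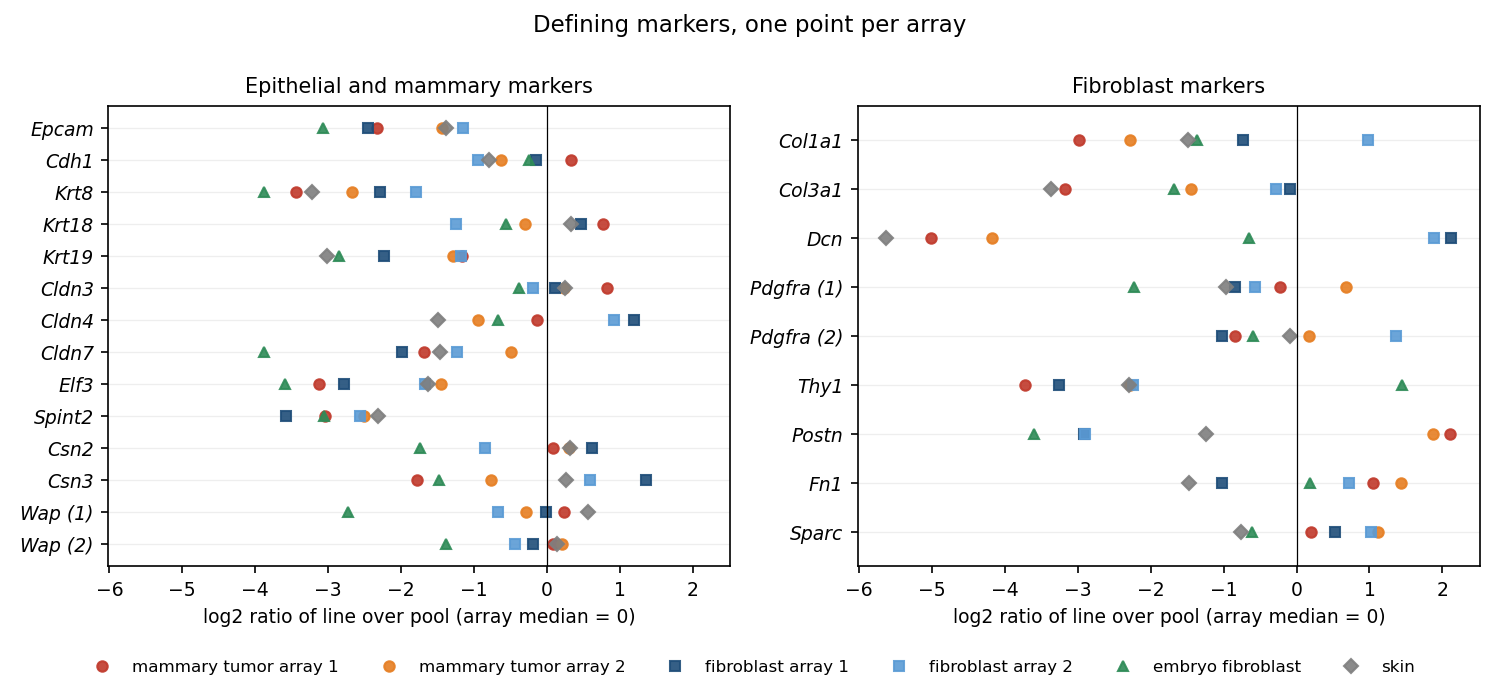
Each point is 1 array, plotted by its log2 ratio of line over pool with the array median at 0, for the epithelial and mammary markers (left) and the fibroblast markers (right). Mammary tumor arrays (circles) mingle with the comparator arrays for nearly all epithelial markers, while Postn separates them to the right and Dcn sets them beside the skin array at the far left.

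The comparison itself set the mean of the mammary tumor arrays against the equal-weight mean of the 3 comparator lines, for 7408 tested probes. Of these, 59 were called (0.796%), 33 higher (0.445%) and 26 lower (0.351%) in the mammary tumor line. A call needed a Benjamini-Hochberg adjusted p under 0.05 in limma's moderated test and both mammary tumor arrays on the same side of the comparator mean, which alone held for 73.4% of probes. With an unadjusted p under 0.05 in place of the adjusted one, 1014 of the 7408 probes passed. Calls higher in the mammary tumor line ranged in size from 1.96 to 5.80 (median 2.92), and in 32 of 33 both of its arrays lay above all 4 comparator arrays. Calls lower in the mammary tumor line ranged from 1.98 to 5.95 in size (median 3.51), and in 23 of 26 both of its arrays lay below all 4. Without that test, arrays of the mammary tumor line lay above all 4 comparator arrays for 10.0% of probes and below all 4 for 11.8%. Every call needed both mammary tumor arrays, since 0 probes were called without array 1 (428 at an unadjusted p under 0.05) and 0 without array 2 (450 at an unadjusted p under 0.05). The count was 105 without fibroblast array 2 and 28 without either of the myeloma arrays, which enter only through the error estimate. Leaving out 1 array of a pair also took that pair out of the shared error estimate. The median residual SD was 0.426 in the main fit, 0.4645 without 1 mammary tumor array and 0.321 without 1 fibroblast array. The Igfbp4 difference was 6.25 without mammary tumor array 1 and 5.35 without array 2, beside 5.80 with both. For Ntrk3 it was -6.58 and -5.31, beside -5.95. The labels give an image number per array and no batch, and a gap of over 100 was taken here to start a new run. Of the 5 runs set in this way none held arrays of both the mammary tumor line and a comparator. Run and line therefore cannot be told apart. With the run as a random block 24 probes were called, all of them among the 59. Of the genes given below with values of their own, Cxcl12, Postn, Junb, Pakap, Timp3, Cbr2, Fbln5, Fgf7, Igfbp6, Peg3, Col6a3, Grem1, Hmga2, Lamb3, Slc12a2, Gpnmb, Bmp4, Efnb1 and Dcn lost their call with that block, at adjusted p-values of 0.055 to 0.14. The called genes listed last, with only a range of differences, are left out here, and most of them lost their call too.

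**Figure D2:**
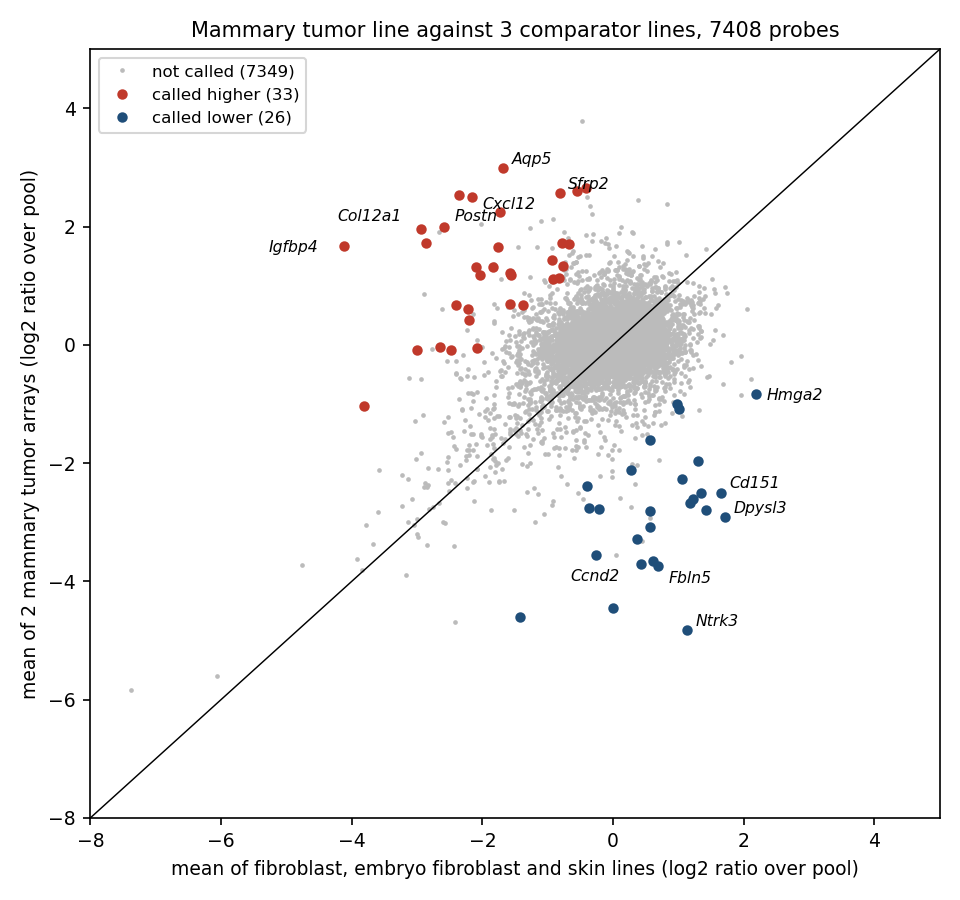
Each point is 1 of 7408 probes, plotted by the mean log2 ratio of the mammary tumor arrays (vertical axis) against the mean of the 3 comparator lines (horizontal axis). The 33 probes called higher lie above the diagonal and the 26 called lower lie below it, and the labelled genes are among those named in the text.

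The highest call in the tumor line was Igfbp4, and 3 genes of the insulin-like growth factor binding protein family were called, in both directions. Igfbp4, a binding protein that holds insulin-like growth factors away from their receptor, read 1.22 and 2.13 in the mammary tumor line, against -4.08 and -2.72 in the fibroblast line, -4.47 in the embryo fibroblast line and -4.50 in the skin line. Every mammary tumor array exceeded every comparator array by a wide margin, and the difference of 5.80 ± 0.49 (SE, adjusted p = 0.00925) corresponds to 55.6-fold. Igfbp7, a related matrix-associated protein, read 1.04 and 1.60 in the mammary tumor line, against -1.60 and -1.11 in the fibroblast line, -2.00 in the embryo fibroblast line and -2.17 in the skin line (3.16 ± 0.33, adjusted p = 0.0152). Igfbp6, which binds insulin-like growth factor II with preference, went the other way. It read -2.74 and -3.41 in the mammary tumor line, against 0.95 and 2.09 in the fibroblast line, 1.70 in the embryo fibroblast line and -1.54 in the skin line (-3.63 ± 0.54, adjusted p = 0.0452). The skin array lay nearest to the tumor line, and the Igfbp6 call was lost without the fibroblast line (adjusted p = 0.0972) or without the embryo fibroblast line (adjusted p = 0.0929). Igfbp5, a further member made in the mammary gland, read 0.41 and 1.33 in the mammary tumor line, against -2.04 and -1.37 in the fibroblast line, -0.56 in the embryo fibroblast line and -1.83 in the skin line. The Igfbp5 groups did not overlap, but the difference of 2.24 ± 0.43 missed the threshold (adjusted p = 0.0863).

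The promoters of the 3 called family members are printed because these genes moved in opposite directions in the same comparison. Each runs 5′ to 3′ from 250 bases before to 50 after the gene's start in the RefSeq annotation of GRCm38.p6, and capitals mark a match to TATAAA or, on the other strand, TTTATA.
Igfbp4 (chr11:99040994-99041293, + strand): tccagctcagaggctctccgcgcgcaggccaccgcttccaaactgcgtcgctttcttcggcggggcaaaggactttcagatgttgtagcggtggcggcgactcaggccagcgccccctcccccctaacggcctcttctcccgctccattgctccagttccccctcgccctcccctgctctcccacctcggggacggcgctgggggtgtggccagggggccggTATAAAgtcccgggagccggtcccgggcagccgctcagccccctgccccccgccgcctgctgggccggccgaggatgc
Igfbp7 (chr5:77407996-77408295, - strand): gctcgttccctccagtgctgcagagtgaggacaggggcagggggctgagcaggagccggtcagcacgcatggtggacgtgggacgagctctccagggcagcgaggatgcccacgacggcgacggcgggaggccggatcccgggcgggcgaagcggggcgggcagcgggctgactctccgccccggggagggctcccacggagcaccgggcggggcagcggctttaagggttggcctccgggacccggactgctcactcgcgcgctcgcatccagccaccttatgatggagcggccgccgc
Igfbp6 (chr15:102143936-102144235, + strand): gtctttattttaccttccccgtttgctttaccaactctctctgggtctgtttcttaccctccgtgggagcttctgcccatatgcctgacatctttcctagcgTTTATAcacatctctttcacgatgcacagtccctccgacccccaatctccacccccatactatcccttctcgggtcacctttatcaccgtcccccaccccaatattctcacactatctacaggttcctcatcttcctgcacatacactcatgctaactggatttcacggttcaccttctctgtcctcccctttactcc
In Igfbp4 the TATAAA match began at base 223 of 300. In Igfbp6 the match was on the other strand, from base 103, and Igfbp7 had none. Such a match was present in 14.2% of 27025 promoters of this length, in 2 of the 11 higher genes with a promoter entry (Igfbp4 and Junb) and in 1 of the 12 lower genes (Igfbp6). An E-box (CACCTG or CAGGTG, either strand) was present in 20.0% of promoters, in 1 of the 11 higher genes (Timp3) and in 3 of the 12 lower genes (Alcam, Cd151 and Pdpn). The AP-1 letters TGANTCA were present in 7.93% of promoters and in 0 of these 11 and 0 of these 12 windows. These counts describe letters in a window and not binding of a factor.

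Among 59 genes for growth factors and their receptors, 4 rose and 2 fell. Calls covered 0.469% (higher) and 0.391% (lower) of the 6394 named genes tested. This and the other gene lists were compiled with earlier results of these data known, so nothing is read from a larger share in any list. The median difference of the growth factor list was 0.12, beside 0.06 over all named genes. Besides Igfbp4, Igfbp7 and Igfbp6, Fgf7 was called. Fgf7, a factor that mesenchymal cells release to stimulate epithelial growth, read -2.90 and -2.33 in the mammary tumor line, against 0.31 and 1.62 in the fibroblast line, 2.34 in the embryo fibroblast line and 0.37 in the skin line. The groups stood clear of each other (-3.84 ± 0.49, adjusted p = 0.0256), and without the embryo fibroblast line the adjusted p was 0.0567. The other 2 calls, named after their values were seen, were Bmp4, a bone morphogenetic protein (2.74, adjusted p = 0.0312), and Efnb1, a membrane-bound ephrin ligand (1.96, adjusted p = 0.046).

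Sfrp2, Ptn and Ccn5, which are secreted and on none of the gene lists, rose in the tumor line. Sfrp2, a secreted Wnt modulator, read 2.54 and 2.60 in the mammary tumor line, against -0.79 and -0.55 in the fibroblast line, -0.97 in the embryo fibroblast line and -0.81 in the skin line (3.38 ± 0.29, adjusted p = 0.00925). Its mammary tumor arrays agreed closely, and all 4 comparator arrays lay below the pool. Ptn, which encodes the heparin-binding growth factor pleiotrophin, read 2.79 and 2.40 in the mammary tumor line, against -1.99 and -1.14 in the fibroblast line, 1.01 in the embryo fibroblast line and -1.10 in the skin line (3.14 ± 0.36, adjusted p = 0.0181). The embryo fibroblast line came nearest for Ptn, and without the fibroblast line the adjusted p was 0.0564. Ccn5, a matricellular protein of the CCN family, read 2.18 and 2.89 in the mammary tumor line, against -2.45 and -0.76 in the fibroblast line, -4.72 in the embryo fibroblast line and -0.74 in the skin line (4.89 ± 0.52, adjusted p = 0.0158). Comparator lines varied widely for Ccn5, but none reached the pool's level.

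Of 46 chemokine and cytokine genes 2 rose and 0 fell, beside 0.469% and 0.391% of all named genes. Their median difference was 0.12, beside 0.06. Cxcl12, the chemokine that draws CXCR4-bearing cells and is a typical fibroblast product, read 2.05 and 2.97 in the mammary tumor line, against 0.06 and 1.36 in the fibroblast line, -4.72 in the embryo fibroblast line and -2.48 in the skin line. Both mammary tumor arrays were above all comparator arrays and the line was highest of all 11, yet the comparators spanned more than the difference between tumor line and fibroblast line. The difference from the 3-line mean was 4.67 ± 0.55 (adjusted p = 0.0201). Against the fibroblast line alone it was 1.79 (adjusted p = 0.33), against the embryo fibroblast line 7.22 and against the skin line 4.98. Without the embryo fibroblast line it was 3.39 (adjusted p = 0.0754), and treating the run as a random block gave an adjusted p of 0.055. Tgfb2, which encodes transforming growth factor beta 2, read 0.44 and 0.41 in the mammary tumor line, against -2.34 and -2.21 in the fibroblast line, -2.48 in the embryo fibroblast line and -1.86 in the skin line (2.63 ± 0.29, adjusted p = 0.0181). It was evenly low across the comparators. Csf1, the macrophage growth factor, read 0.91 and 1.29 in the mammary tumor line, above all comparator arrays, without passing the test (2.16 ± 0.36, adjusted p = 0.0612).

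Matrix genes divided within the tumor line. Of 24 collagen genes 2 rose and 0 fell, beside 0.469% and 0.391% of all named genes. Both mammary tumor arrays lay above all 4 comparator arrays for 7 and below all 4 for 1 (Col1a1), beside 10.4% and 12.5%. The median difference of the collagen genes was 0.42, beside 0.06 over all named genes. It was positive in the main comparison and in each of the 18 alternatives (0.29 to 0.61). Against single lines it was 0.12 for fibroblast, 0.56 for embryo fibroblast and 1.10 for skin. Over all named genes these medians were 0.07, 0.02 and 0.03, so the collagen shift was small against the fibroblast line. Lists of other cell types had medians of similar size, 0.41 for keratinocyte and melanocyte markers, 0.37 for mammary gland genes and 0.35 for epithelial genes. Col12a1, a fibril-associated collagen, read 1.64 and 2.28 in the mammary tumor line, against -3.22 and -3.36 in the fibroblast line, -3.51 in the embryo fibroblast line and -2.03 in the skin line (4.91 ± 0.32, adjusted p = 0.00664, 30.0-fold). No comparator array came near the tumor line, although the myoblast line was higher still, at 2.44. Col6a3, a chain of the microfibrillar type VI collagen, read 1.77 and 1.64 in the mammary tumor line, against 0.03 and -0.35 in the fibroblast line, -0.72 in the embryo fibroblast line and -1.13 in the skin line (2.37 ± 0.29, adjusted p = 0.0233). Its other probes gave smaller differences of 1.56 and 1.04, neither called, and treating the run as a random block gave the called probe an adjusted p of 0.055. Col5a2, a chain of fibril-nucleating type V collagen, read 2.82 and 2.17 in the mammary tumor line and at most 0.73 in the comparators, but its difference of 2.89 ± 0.62 was not called (adjusted p = 0.11). Col1a1, given above, and Col3a1 had negative differences of -1.72 and -0.56, neither called.

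Among 42 matrix glycoproteins and proteoglycans 1 rose and 4 fell, beside 0.469% and 0.391% of all named genes. Their median difference was 0.34, beside 0.06. Postn, which encodes the matricellular protein periostin, read 2.10 and 1.87 in the mammary tumor line, against -2.92 and -2.90 in the fibroblast line, -3.60 in the embryo fibroblast line and -1.24 in the skin line (4.58 ± 0.59, adjusted p = 0.0278). It was clear of every comparator array, but the call was lost without the fibroblast line (adjusted p = 0.0564), without the embryo fibroblast line (adjusted p = 0.0526) or with the run as a block (adjusted p = 0.113). Fbln5, which encodes the elastic fibre protein fibulin 5, read -3.90 and -3.60 in the mammary tumor line, against 0.05 and -0.03 in the fibroblast line, 2.60 in the embryo fibroblast line and -0.56 in the skin line (-4.43 ± 0.58, adjusted p = 0.0279). The mammary tumor line was lowest of all 11 lines for Fbln5, and the adjusted p was 0.0814 without the embryo fibroblast line. Fstl1, a secreted follistatin-like glycoprotein, read -4.70 and -4.21 in the mammary tumor line, against 0.54 and 2.09 in the fibroblast line, -0.31 in the embryo fibroblast line and -1.03 in the skin line (-4.45 ± 0.50, adjusted p = 0.0181). No comparator array approached the tumor line, and without the fibroblast line the adjusted p was 0.0547. Bgn, which encodes biglycan, read -2.21 and -2.33 in the mammary tumor line, against 0.56 and 1.63 in the fibroblast line, 1.68 in the embryo fibroblast line and 0.39 in the skin line (-3.33 ± 0.39, adjusted p = 0.0201). For Bgn the arrays did not overlap.

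Decorin showed how the comparators could disagree. Dcn read -5.02 and -4.18 in the mammary tumor line, against 2.12 and 1.89 in the fibroblast line, -0.66 in the embryo fibroblast line and -5.63 in the skin line. Its difference from the 3-line mean was called (-3.17 ± 0.42, adjusted p = 0.0299), yet the skin array lay below both mammary tumor arrays. Thbs1, which encodes the matricellular protein thrombospondin 1 and is one of the marker genes of the comparison, split the comparators likewise. It read 1.98 and 2.73 in the mammary tumor line, against 1.05 and 1.51 in the fibroblast line, 0.89 in the embryo fibroblast line and -3.23 in the skin line. The mammary tumor line was highest of all 11 lines, but the difference of 2.71 ± 0.47 was not called (adjusted p = 0.0686) and was 1.27 without the skin line (adjusted p = 0.288).

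Of 30 matrix-modifying enzymes and inhibitors 1 rose and 0 fell, beside 0.469% and 0.391% of all named genes. Their median difference was 0.16, beside 0.06, and ran from -0.107 to 0.683 over the alternatives. Timp3, a matrix-bound inhibitor of metalloproteinases, read 0.41 and 0.94 in the mammary tumor line, against -4.59 and -3.98 in the fibroblast line, -1.14 in the embryo fibroblast line and -1.78 in the skin line (3.08 ± 0.38, adjusted p = 0.0233). The fibroblast arrays were the low ones, and without that line the adjusted p was 0.108. Lox, which cross-links collagen, illustrates an uncalled spread: it read 0.71 and 2.02 in the mammary tumor line, against -3.14 and -1.33 in the fibroblast line, 1.87 in the embryo fibroblast line and -5.11 in the skin line (3.19 ± 0.64, adjusted p = 0.0936). Ctsl, a lysosomal cysteine protease, was not on that list and fell. It read -3.18 and -2.39 in the mammary tumor line, against 2.21 and 2.11 in the fibroblast line, 0.74 in the embryo fibroblast line and 1.35 in the skin line (-4.20 ± 0.41, adjusted p = 0.0121).

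Genes of mesenchymal identity did not move as a block: of 38, 1 rose (Cxcl12) and 3 fell, 7 lay above all 4 comparator arrays and 8 below, and the median difference was 0.14. Over all named genes 0.469% rose, 0.391% fell, 10.4% lay above all 4, 12.5% lay below, and the median was 0.06. The median of the mesenchymal list was negative without the skin line. Foxc1, a forkhead transcription factor of mesenchyme, read -2.14 and -1.79 in the mammary tumor line, against 1.65 and 1.85 in the fibroblast line, 1.39 in the embryo fibroblast line and 0.78 in the skin line (-3.27 ± 0.30, adjusted p = 0.0121). Hmga2, a chromatin protein of embryonic mesenchyme, read -0.85 and -0.81 in the mammary tumor line, against 2.48 and 2.51 in the fibroblast line, 2.43 in the embryo fibroblast line and 1.65 in the skin line (-3.03 ± 0.34, adjusted p = 0.0181). For both genes all 4 comparator arrays were above the pool and both mammary tumor arrays below it, and all 7 other lines were lower than the mammary tumor line for Hmga2. Grem1, a secreted bone morphogenetic protein antagonist, read -3.29 and -3.83 in the mammary tumor line, against 2.34 and 1.32 in the fibroblast line, -3.74 in the embryo fibroblast line and 1.11 in the skin line (-3.29 ± 0.48, adjusted p = 0.0429). There the embryo fibroblast line was as low as the tumor line, and without it the difference was -5.03, while without the fibroblast line it was -2.24 (adjusted p = 0.153) and without the skin line -2.60 (adjusted p = 0.0853). Prrx2, a homeobox gene of mesenchyme, read 0.39 and 1.60 in the mammary tumor line, above every comparator array, without passing the test (1.98 ± 0.40, adjusted p = 0.0973).

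The lower calls included the surface proteins Ntrk3, Pdpn, Cd151 and Alcam. Ntrk3, the neurotrophin 3 receptor, had the largest difference, with -4.19 and -5.46 in the mammary tumor line, against 0.86 and 1.51 in the fibroblast line, 1.60 in the embryo fibroblast line and 0.60 in the skin line (-5.95 ± 0.46, adjusted p = 0.00892, 61.8-fold lower). A second Ntrk3 probe disagreed: it read 0.90 and 0.39 in the mammary tumor line and its difference was 0.81 (adjusted p = 0.335), so the transcript behind the call is uncertain. Pdpn, which encodes the mucin-like surface protein podoplanin, read -3.38 and -3.19 in the mammary tumor line, against 0.94 and 1.80 in the fibroblast line, -0.53 in the embryo fibroblast line and 0.28 in the skin line (-3.66 ± 0.35, adjusted p = 0.0121). Cd151, a tetraspanin that partners laminin-binding integrins, read -2.35 and -2.65 in the mammary tumor line, against 1.57 and 0.74 in the fibroblast line, 2.05 in the embryo fibroblast line and 1.75 in the skin line (-4.15 ± 0.36, adjusted p = 0.00925). Alcam, an adhesion molecule of the immunoglobulin family, read -2.18 and -3.17 in the mammary tumor line, against 1.26 and 1.39 in the fibroblast line, 2.55 in the embryo fibroblast line and -0.36 in the skin line (-3.85 ± 0.38, adjusted p = 0.0121). For Pdpn, Cd151 and Alcam the groups did not overlap.

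Ccnd2, Dpysl3, Crabp1 and Peg3, whose products act inside the cell, fell. Ccnd2, which encodes cyclin D2, read -3.74 and -3.67 in the mammary tumor line, against -0.02 and 0.15 in the fibroblast line, 0.80 in the embryo fibroblast line and 0.42 in the skin line (-4.13 ± 0.28, adjusted p = 0.00664). The mammary tumor arrays nearly coincided, and the line was lowest of all 11 for Ccnd2. Dpysl3, a cytoskeletal protein of the collapsin response mediator family, read -3.09 and -2.75 in the mammary tumor line, against 2.22 and 1.90 in the fibroblast line, 2.44 in the embryo fibroblast line and 0.66 in the skin line (-4.64 ± 0.33, adjusted p = 0.00664). Crabp1, a retinoic acid binding protein of embryonic mesenchyme, read -4.18 and -3.14 in the mammary tumor line, against 2.27 and 2.81 in the fibroblast line, 2.43 in the embryo fibroblast line and -3.12 in the skin line (-4.28 ± 0.40, adjusted p = 0.0121). Skin read almost as low as the tumor line for Crabp1, with a difference of -0.55 against skin alone and of -6.14 without the skin line. Peg3, an imprinted zinc finger gene, read -2.47 and -3.16 in the mammary tumor line, against 2.03 and 1.57 in the fibroblast line, 1.12 in the embryo fibroblast line and -1.23 in the skin line (-3.38 ± 0.47, adjusted p = 0.0349). Its other probe differed by -0.43 and was not called, and the first was lost without the fibroblast line (adjusted p = 0.0948) or the embryo fibroblast line (adjusted p = 0.0583).

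Hes1, Junb, Cbr2, Pakap and a probe without a RefSeq match rose. Hes1, a repressor induced by Notch, read 1.75 and 2.75 in the mammary tumor line, against -2.01 and -1.39 in the fibroblast line, -1.27 in the embryo fibroblast line and -2.23 in the skin line (3.98 ± 0.44, adjusted p = 0.0179). Junb, an AP-1 subunit, read 0.77 and 1.86 in the mammary tumor line, against -1.61 and -0.87 in the fibroblast line, -1.39 in the embryo fibroblast line and -3.68 in the skin line (3.42 ± 0.53, adjusted p = 0.0497). The groups stayed apart for both genes, but Junb was called in only 7 of 18 alternatives and had an adjusted p of 0.0582 without the fibroblast line and 0.102 without the skin line. Cbr2, a carbonyl reductase best known from lung, read 2.48 and 2.82 in the mammary tumor line, against -0.34 and -0.80 in the fibroblast line, -0.38 in the embryo fibroblast line and -0.27 in the skin line (3.06 ± 0.38, adjusted p = 0.0233). Pakap, an anchoring protein of protein kinase A, differed by 3.41 ± 0.47 (adjusted p = 0.035), and by 2.38 without the embryo fibroblast line (adjusted p = 0.124) and 3.63 without the fibroblast line (adjusted p = 0.053). A probe annotated Mym, a symbol without a match in the RefSeq table, differed by 3.23 ± 0.33 (adjusted p = 0.013). It rested on an embryo fibroblast value of -5.33, without which the difference was 1.58 (adjusted p = 0.139).

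**Figure D3:**
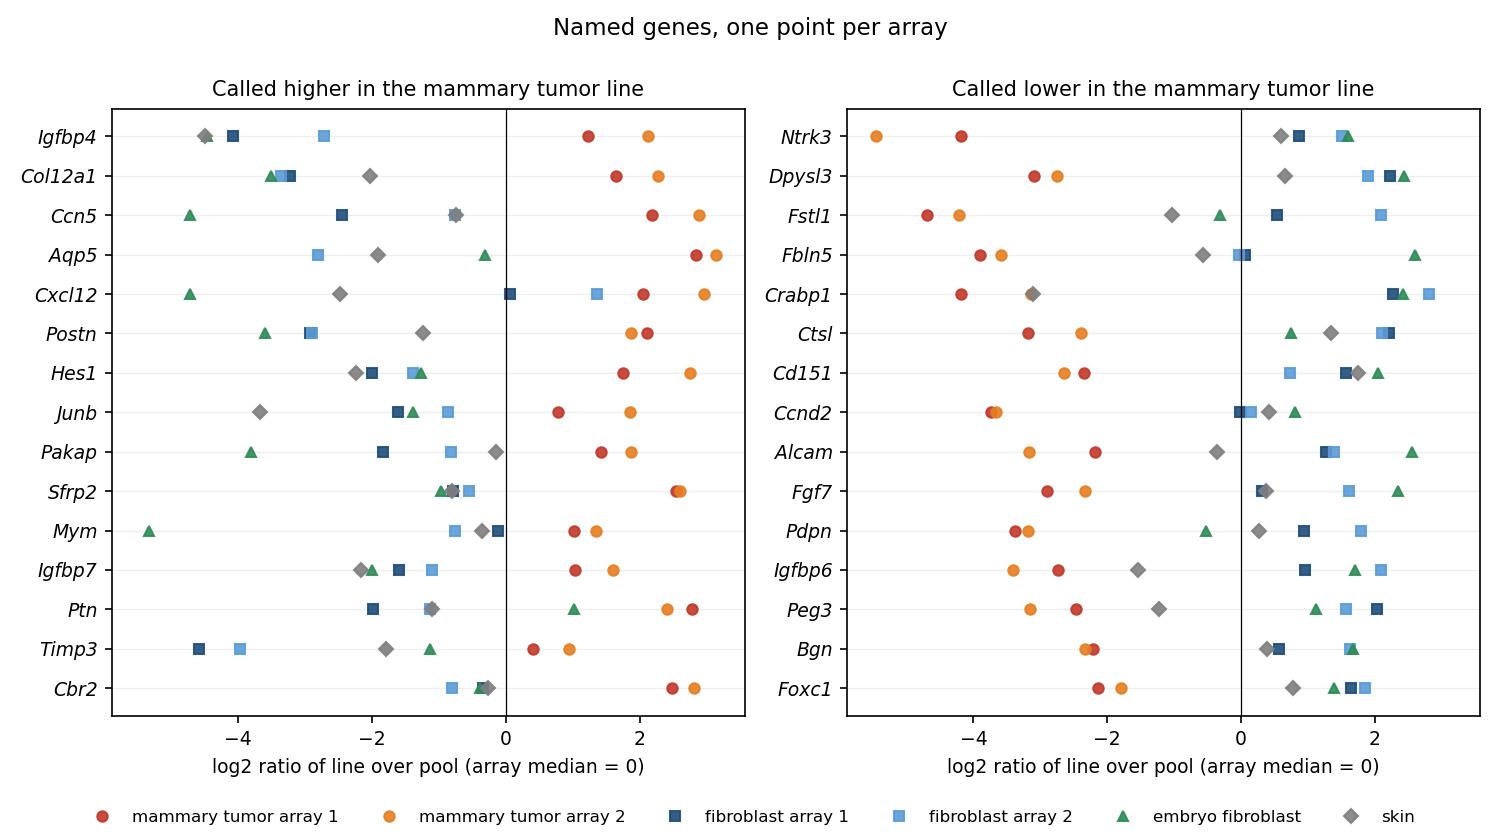
Each point is 1 array, plotted by its log2 ratio of line over pool with the array median at 0, for 15 genes called higher (left) and 15 called lower (right). These genes have the largest differences among calls with both mammary tumor arrays outside the comparator range. By that choice both mammary tumor arrays (circles) lie to the right of all comparator arrays in the left panel. In the right panel they lie to the left of all of them, with the skin array close by for Crabp1.

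Of 41 epithelial genes 1 rose and 0 fell, beside 0.469% and 0.391% of all named genes. Both mammary tumor arrays lay above all 4 comparator arrays for 9 and below all 4 for 3, beside 10.4% and 12.5% of all named genes, and the median difference was 0.35, beside 0.06. Against single lines the median was 0.31 for fibroblast, 0.62 for embryo fibroblast and 0.15 for skin. Lamb3, a chain of a basement membrane laminin of stratified epithelia, read 0.49 and 0.74 in the mammary tumor line, against -2.66 and -2.06 in the fibroblast line, -3.03 in the embryo fibroblast line and -1.25 in the skin line (2.83 ± 0.33, adjusted p = 0.0201). The adjusted p was 0.055 with the run as a block and 0.0531 with only the 6 arrays fitted. Perp, a desmosomal protein induced by p53, read 2.06 and 1.76 in the mammary tumor line, against -3.30 and -4.38 in the fibroblast line, -2.53 in the embryo fibroblast line and -1.61 in the skin line. The Perp groups lay far apart, but the difference of 4.57 ± 0.81 carried a wide error and was not called (adjusted p = 0.0712). Pkp1, a plakophilin of desmosomes, read 1.51 and 1.28 in the mammary tumor line, above every comparator array (2.13 ± 0.35, adjusted p = 0.0612). Trp63, a transcription factor of basal epithelium, read 1.38 and 1.65 there, also above every comparator array (1.88 ± 0.46, adjusted p = 0.144). Perp, Pkp1 and Trp63 were picked after their values were seen. Other genes of the list lay lower in the tumor line: Itga6, an integrin chain of epithelial attachment, differed by -1.50 (adjusted p = 0.0902) and Sfn, an epithelial 14-3-3 protein, by -0.52 (adjusted p = 0.648), both below all 4 comparator arrays and neither called.

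Of 39 mammary gland genes 1 rose and 1 fell, beside 0.469% and 0.391% of all named genes. For 10 both mammary tumor arrays lay above all 4 comparator arrays and for 2 below, beside 10.4% and 12.5%, and the median difference was 0.37, beside 0.06. Against single lines the median was 0.39 for fibroblast and 0.48 for embryo fibroblast. Against skin it was 0.02, beside 0.03 over all named genes. Aqp5, a water channel of secretory glands, read 2.85 and 3.14 in the mammary tumor line, against -2.81 on the single fibroblast array that measured it, -0.32 in the embryo fibroblast line and -1.92 in the skin line. It was highest of all 11 lines in the tumor line, whose arrays stood clear of all measured comparators (4.67 ± 0.38, adjusted p = 0.0121). The fit dropped the missing fibroblast value. Slc12a2, a sodium, potassium and chloride cotransporter, read -1.50 and -1.71 in the mammary tumor line, against -0.76 and -0.40 in the fibroblast line, 1.98 in the embryo fibroblast line and 0.28 in the skin line. It was called lower (-2.16 ± 0.31, adjusted p = 0.0426), but the difference was -1.45 without the embryo fibroblast line (adjusted p = 0.151). Id2, a dominant-negative helix-loop-helix protein needed in mammary development, read -0.65 and 0.11 in the mammary tumor line and was uncalled (2.13 ± 0.36, adjusted p = 0.0658).

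Lists of other cell types held 1 call, beside 0.469% (higher) and 0.391% (lower) of all named genes. The 23 keratinocyte and melanocyte markers had a median difference of 0.41 (0.25 to 0.68 over the alternatives). Against the fibroblast, embryo fibroblast and skin lines alone, these markers had medians of 0.48, 0.45 and 0.16. Among them Gpnmb, a transmembrane glycoprotein of melanocytes and macrophages, read -1.43 and -0.63 in the mammary tumor line, against -3.19 and -2.27 in the fibroblast line, -4.38 in the embryo fibroblast line and -4.33 in the skin line (2.78 ± 0.42, adjusted p = 0.0452). All 6 arrays of the comparison were below the pool for Gpnmb, while the macrophage line was highest of all 11 lines, at 2.73. The Gpnmb call was lost without the embryo fibroblast line (adjusted p = 0.0819) or the skin line (adjusted p = 0.0685). The limma fit called 0 of 29 leukocyte, 15 endothelial, 25 muscle and 13 adipocyte markers, of which 8, 3, 3 and 5 had an unadjusted p under 0.05, in that order. The count over all tested probes was 1014 of 7408.

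**Figure D4:**
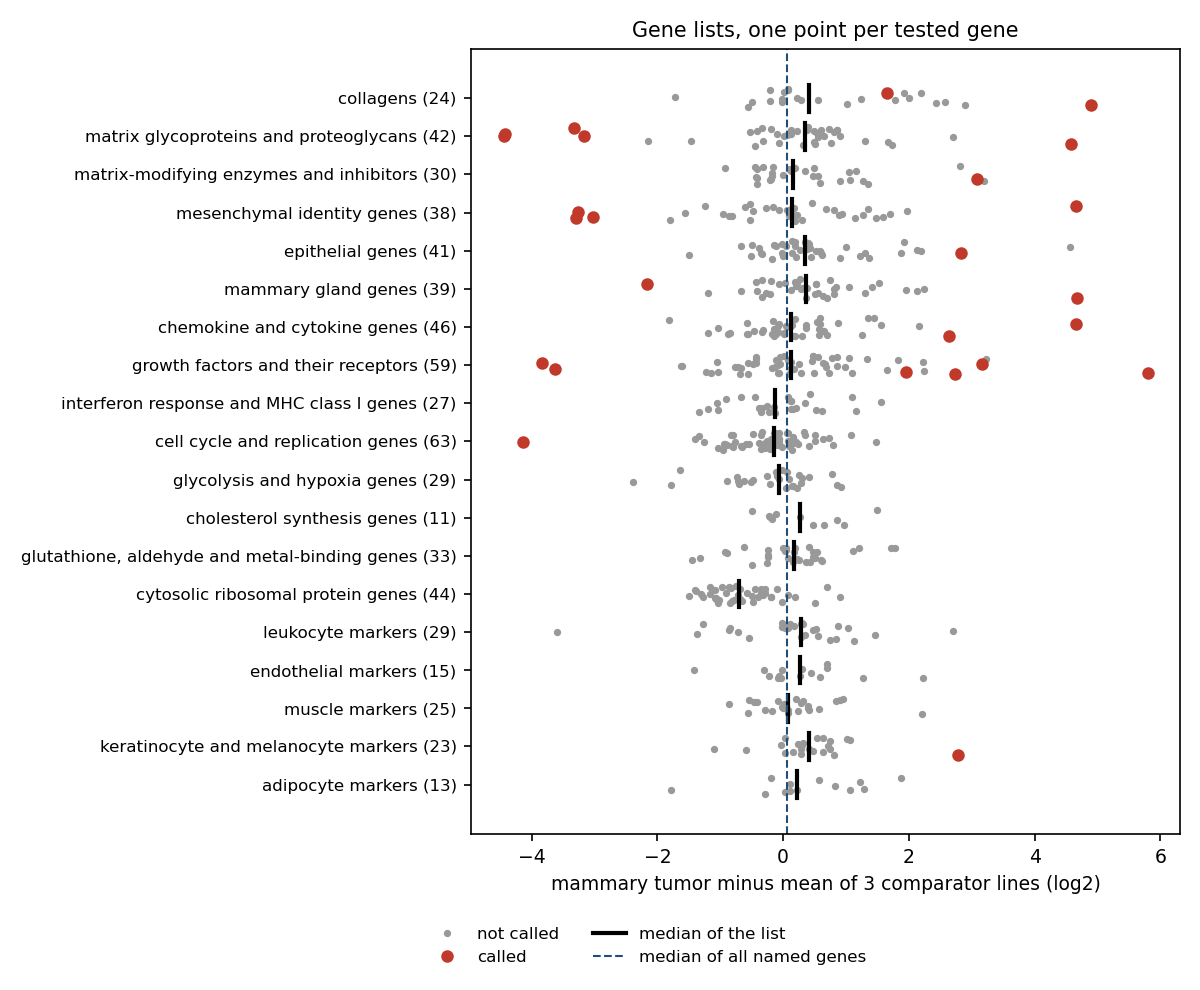
Each point is 1 gene of a list, plotted by the mammary tumor line minus the mean of the 3 comparator lines on the log2 scale (probes of a gene averaged), with the number of tested genes in brackets and called genes in red. Medians (black bars) of the other lists run from -0.15 to 0.42 beside the median over all named genes (dashed line, 0.06), and the ribosomal protein list lies furthest to the left at -0.70.

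The tumor line was also set against each comparator line alone. All of these contrasts share the mammary tumor arrays, so their calls are given side by side and not as separate evidence. Against the fibroblast line alone 69 probes were called (0.931%), against the embryo fibroblast line 85 (1.15%) and against the skin line 0 (0.0%). Skin had 650 probes at an unadjusted p under 0.05 and a smallest adjusted p of 0.0536. Its count depended on the fit: it was 19 with the replicate number as a block, 42 with quantile normalization, 6 with arrays scaled to a common spread, 11 with only probes measured on all arrays and 19 without either fibroblast array. Without either mammary tumor array the counts against fibroblast fell to 0 and 2 and those against embryo fibroblast to 0. The 33 probes higher in the tumor line had median differences of 2.97 against fibroblast, 3.31 against embryo fibroblast and 2.83 against skin. The 26 lower probes had median differences of -3.74 against fibroblast, -3.94 against embryo fibroblast and -2.57 against skin. Each comparator line is part of the mean that chose these probes, so these medians are a description.

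Across all tested probes the tumor line lay about as far from the comparators as from the other adherent lines. Distance was the SD over probes of the difference between arrays of different lines. It was 0.86 to skin, 0.981 to fibroblast and 1.08 to embryo fibroblast, with a mean of 0.974. Arrays of different comparator lines lay 0.867 to 1.11 from each other, a range that holds this mean. The other adherent lines gave 0.871 for liver, 0.874 for testis, 1.02 for myoblast and 1.03 for kidney, with a mean of 0.95. The difference of 0.024 did not pass an exact permutation test over lines (two-sided p = 0.8, adjusted p = 0.8 over 2 tests, smallest possible p 0.0286). With the blood-cell lines included, at 1.16 for myeloma, 1.27 for T-cell lymphoma and 1.28 for macrophage, the 7 other lines averaged 1.07, and the difference of -0.099 did not pass either (exact permutation test, two-sided p = 0.375, adjusted p = 0.75). The pair of mammary tumor arrays differed by 0.551, and the fibroblast pair by 0.989, which is as much as the tumor line differed from fibroblast. Arrays with a wider spread of values lay further away, with a mean SD of 0.771 for skin and 1.16 for T-cell lymphoma, and the part of that spread in the distances was not tested.

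**Figure D5:**
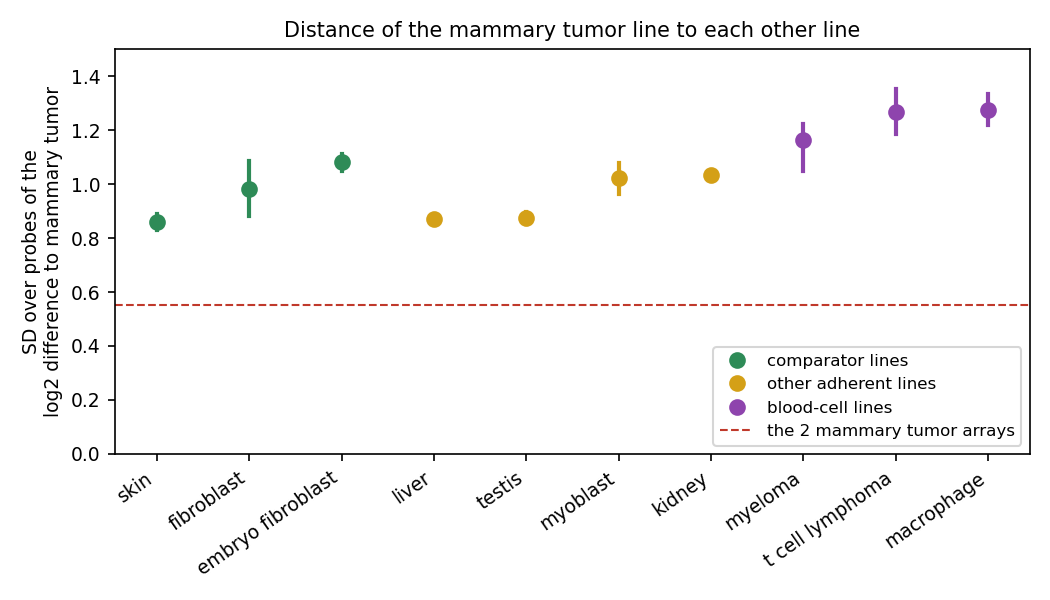
Points give the mean distance of each line to the mammary tumor line (SD over probes of the log2 difference between arrays, vertical axis), and bars give the lowest and highest pair of arrays. The 3 comparator lines span 0.86 to 1.08, the other adherent lines 0.871 to 1.03 and the blood-cell lines 1.16 to 1.28, all above the dashed line at 0.551 for the pair of mammary tumor arrays.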

How the data were processed

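Per the labels, each array compared 1 cell line (Cy5) with the Stratagene mouse reference pool (Cy3), with no dye swap, and the reference label of mammary tumor array 1 carries extra letters. The authors deposited 1 value per spot and array, read here as log2 ratios. The sources used here give neither background correction and normalization nor the base and direction of the ratio. With log2 of line over pool the unlogged ratio averaged a median of 1.00 over lines (1.20 with the sign turned, 1.07 with natural logs, 1.87 with log10), where 1 is what a pool made equally of these lines would give. That makeup is not stated in the labels, so direction and base 2 are assumptions on which every sign and fold rests.

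Empty cells numbered 423 of 107520. The 80 Gapdh spots were averaged, and 7408 of 7601 features had a value in all 11 lines and on both mammary tumor arrays. Arrays were centred on their medians, which ran from -0.509 (embryo fibroblast) to 0.126 (skin); their SDs were 0.707 and 0.632 for the mammary tumor arrays, against 0.785 to 0.978 for the comparators. The number of arrays limits the precision. Symbols came from the platform annotation (6835 probes with 1 symbol, 4 with several, 841 not listed and left unnamed), and 6809 matched RefSeq GRCm38.p6.

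One limma 3.58.1 fit (lmFit, eBayes, R 4.3.3) held all 14 arrays with the line as group. Residual spread came from the mammary tumor, fibroblast and myeloma pairs (3 degrees of freedom, plus 3.79 from moderation; median SD 0.426), and lines with 1 array were taken to vary alike. Separate cultures are not stated for the arrays of a pair. The p-values therefore reflect array-to-array spread alone, and this may be technical. Errors are standard errors of the fit. The 15 genes per direction with the largest called difference outside the comparator range were named, with up to 4 called members per list and the markers Cxcl12, Aqp5 and Thbs1; others are said to be picked later, or are members of the fixed marker set, or give the extremes of a list. Members, the 19 gene lists (835 entries) and the comparison were chosen with earlier results of these data known; the motifs and the promoters shown were chosen after the values were seen. The fitting step was tested on simulated data. Alternatives covered centring, quantile normalization, scaling, a position trend, the arrays and probes fitted, weights, left-out lines and arrays, and run and replicate blocks. Python 3.11.15 and matplotlib 3.10.9 drew the figures.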

Additional observations from a re-analysis of the deposited data

How the results depend on the processing

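The count of 59 calls in the main comparison was 229 with quantile normalization (106 higher, 123 lower), 152 with arrays scaled to a common spread (76 each way), 28 with only the 6 arrays fitted, 24 with the run block, 121 with the replicate block and 0 to 105 when single replicates were left out. As deposited, without centring, it was 58 (38 higher, 20 lower, against 33 and 26), and the median over all probes moved to 0.25, against 0.06 after centring. Of the 59, all 59 were called with quantile normalization, 57 with the replicate block and 53 without centring. The 69 calls against fibroblast were 171 with quantile normalization, 106 with scaling, 37 with the run block, 156 with the replicate block and 0 to 69 with a replicate left out. The 85 calls against embryo fibroblast were 138 as deposited, 54 with scaling, 130 with the position trend removed, 27 with only the 6 arrays, 39 with the run block, 321 with the replicate block and 0 to 174 with a replicate left out. The 0 calls against skin became 42 with quantile normalization, 6 with scaling, 19 with the replicate block, 11 with complete probes and 0 to 19 with a replicate left out. The replicate numbers are shared but the labels do not say what they mark: the difference between array 2 and array 1 correlated at 0.539 between the mammary tumor and fibroblast lines, 0.381 between the mammary tumor and myeloma lines and 0.333 between the fibroblast and myeloma lines. With 2 numbers this does not establish pairing. Both distance differences kept their side of the threshold in every alternative run. Of 683 values of the 38 named genes under alternatives, 513 kept direction and side of the threshold, 166 kept direction but missed it, 4 kept direction and newly passed it and 0 reversed. Where not stated, the cause of these shifts was not tested.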

Other observations

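Of 44 cytosolic ribosomal protein genes limma called 0 and 21 had an unadjusted p under 0.05, beside 1014 of all 7408 tested probes. Of these 44 genes 39 had a negative difference. On both mammary tumor arrays 18 lay below all 4 comparator arrays and 1 lay above, beside 12.5% and 10.4% of all named genes. Their median difference was -0.70 and ran from -0.93 to -0.51 over the alternatives, beside 0.06 over all named genes. The list's mean level was -0.30 and -0.04 on the mammary tumor arrays, against 0.18 and 0.32 for fibroblast, 0.67 for embryo fibroblast and 0.43 for skin. Of 63 cell cycle and replication genes only Ccnd2 was called, as lower, beside 0.391% of all named genes. For 14 both mammary tumor arrays lay below all 4 comparator arrays and for 4 above, beside 12.5% and 10.4% of all named genes. The median was -0.15 and turned positive only in the values as deposited (0.05). Bub1, a spindle checkpoint kinase, read -1.03 and -0.99 in the mammary tumor line, against 0.09 and 0.49 in the fibroblast line, 0.99 in the embryo fibroblast line and -0.29 in the skin line (-1.34 ± 0.39, adjusted p = 0.206).

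Gapdh, averaged over its spots, read -1.74 and -0.95 in the mammary tumor line, against 0.52 and 0.93 in the fibroblast line, 0.14 in the embryo fibroblast line and 0.02 in the skin line, with no overlap and no call (-1.64 ± 0.36, adjusted p = 0.112). The 29 glycolysis and hypoxia genes as a whole had a median difference of -0.06 (-0.503 to 0.221 over the alternatives). That of the 27 interferon response and MHC class I genes was -0.13 (-0.515 to 0.204). These 2 medians changed sign in 5 and 3 alternatives. The median was 0.27 for the 11 cholesterol synthesis genes (-0.0 to 0.589) and 0.17 for the 33 glutathione, aldehyde and metal-binding genes (0.077 to 0.366). Limma called 0 genes in each of these lists. In that order, 4, 5, 3 and 5 genes had an unadjusted p under 0.05, beside 1014 of all 7408 tested probes. B2m, the light chain of MHC class I, read -1.06 and -0.38 in the mammary tumor line, against 1.30 and 1.21 in the fibroblast line, -0.17 in the embryo fibroblast line and 0.33 in the skin line (-1.19 ± 0.36, adjusted p = 0.22). The remaining called genes, on no list, were Vdr, Akip1, Sspn, Ppp1r1b, Bdkrb1, Nfatc1, Pax6, Pon3 and Pdlim5 among the higher (differences of 2.04 to 2.79), and Nmt2, Man1a, Mthfd2, Ptgis, Etv5 and Itgb7 among the lower (-2.57 to -1.98). Most of these genes lost their call with the run as a random block.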
